A study of Homo sapiens with 4 samples.

Results

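The potassium channel genes are the 96 protein-coding genes whose symbols begin with KCN followed by a family letter code and a number, out of 58174 genes listed in the deposited tables. They were chosen by symbol, a rule that uses no measured level, though earlier results of these data were known when the family was picked. Sorted by symbol, they comprise 40 voltage-gated pore subunits, 13 auxiliary subunits of voltage-gated channels, 16 inward rectifiers, 15 two-pore channels, 8 calcium-activated and related channels, and 4 auxiliary subunits of calcium-activated channels. Together they were represented by 647 transcripts, 439 of them protein coding.

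All RNA came from Daoy, an established human medulloblastoma cell line. Total RNA was sequenced from 2 libraries of the wild type genotype and 2 libraries labelled EED-knockout, whose EED the design text calls mutant, with no treatment or time named. EED belongs to the core of PRC2, the Polycomb complex that methylates histone H3 at lysine 27. The labels name neither the mutation nor whether a genotype is 1 clone or several. They do not state separate cultures for the 2 libraries of a genotype. Every p-value here thus rests on a spread between libraries whose kind of replication is not stated, and which may not be that between independent cultures or clones.

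Potassium channels let potassium leave or enter a cell down its gradient, and so set the resting membrane potential, shape action potentials and take part in volume control and proliferation. Each pore is built from subunits that carry a shared selectivity filter, and auxiliary subunits alter the gating or surface delivery of the pore. Voltage-gated channels open on depolarisation, inward rectifiers pass current more readily inward than outward, two-pore channels carry a steady leak current, and calcium-activated channels open when internal calcium rises. Many of these genes serve excitable cells such as neurons and muscle, and some also act in epithelia, glia and tumour cells. PRC2 is known to occupy promoters rich in CpG, the dinucleotide cytosine followed by guanine, at silent developmental and neuronal genes.

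The 4 libraries held 17836112 to 19106382 estimated counts. A floor of 3 counts corresponded to 0.158 to 0.166 CPM (counts per 1000000 of the library, here with library sizes scaled by edgeR's TMM factors). EED was measured at 626 and 500 counts in wild type 1 and 2 and at 340 and 490 counts in knockout 1 and 2, or 31.0 ± 4.81 CPM against 22.0 ± 5.84 CPM (SD, n = 2 each). Both knockout libraries lay below both wild type libraries, and the log2 fold change was -0.49 (95% interval -1.12 to 0.13; edgeR adjusted p = 0.878). EED RNA was thus present in every library, and the difference was not larger than the spread between libraries by that test; a mutation that leaves the transcript in place would not be seen in these counts. Of the granule lineage and hedgehog medulloblastoma markers, ATOH1 was at 0 in all 4 libraries while ZIC1, ZIC2, GLI2, PTCH1 and PAX6 were each above 300 counts in every library. The other 2 genes of that list were low, with 11, 5, 28 and 23 counts for GLI1 (log2 fold change 1.60, edgeR unadjusted p = 0.040) and 8, 1, 7 and 5 for BARHL1, in the order wild type 1, wild type 2, knockout 1 and knockout 2. SOX10 of the glial list and CD3E of the blood list were also at 0 in every library. Over the whole marker lists, the summed level of 8 neuronal genes ranged from 101 to 142 CPM in wild type and from 115 to 145 CPM in the knockout. TUBB3 alone supplied 89.3 to 133.7 CPM of these sums. Of the 7 neuronal genes tested (GAP43 was not), MAP2 and RBFOX3 lay above wild type in both knockout libraries and 0 lay below, beside 17.9% and 18% of all genes tested. In the same order, MAP2 had 5, 6, 34 and 19 counts (log2 fold change 2.18, edgeR unadjusted p = 0.012, adjusted p = 0.799). With those wild type counts it entered the test only through the knockout libraries. The sum of 8 muscle genes was 42.6 CPM in wild type 1 and 0.96 to 3.05 CPM in the other libraries. The sum of 5 endothelial genes was 14.0 and 16.7 CPM in wild type 1 and 2. It was 112.8 CPM in knockout 1, mostly from KDR at 1782 counts, and 1.23 CPM in knockout 2. TEK of that list had 1 count in knockout 2, against 193, 204 and 286 in wild type 1, wild type 2 and knockout 1. Wild type 1 therefore stood apart on the muscle list, and the knockout libraries on the endothelial list in opposite directions. The part this plays in the channel values was not tested. Fewer cells expressing a gene and less RNA per cell cannot be told apart in bulk RNA.

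No potassium channel gene differed between the genotypes after correction for multiple testing. Of the 96 genes, 58 had enough counts to be tested, and edgeR's quasi-likelihood test called 0 of them at an adjusted p under 0.05; it called 0 of all 18349 genes tested (0%). DESeq2 also called 0 channels, against 68 of 17637 genes with an adjusted p (0.386%). At an unadjusted edgeR p under 0.05 there were 7 channels, 4 higher in the knockout (KCNH3, KCNC1 and KCNS3 among them) and 3 lower (KCNN4, KCNN3 and KCNK6). The 7 of 58 stand beside 5.9% of all genes tested, and the 4 and the 3 beside 2.85% and 3.05%. DESeq2 gave the same 7 channels at an unadjusted p under 0.05. The edgeR count was 3 without wild type 1, 10 without wild type 2, 8 without knockout 1 and 15 (10 higher, 5 lower) without knockout 2.

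Counted without a test, both knockout libraries exceeded both wild type libraries for 11 of the 58 channels and fell short of both for 8, beside 17.9% and 18% of all genes tested. The log2 fold change was above 0 for 35 channels and below 0 for 23, beside 50.9% above 0 over all genes. The median log2 fold change was 0.14 over the 58 channels and 0.01 over all genes tested. By class, the median was 0.03 for voltage-gated pore subunits, 0.18 for their auxiliary subunits, 0.25 for inward rectifiers, 0.53 for two-pore channels, -0.26 for calcium-activated channels and 0.10 for their auxiliary subunits. The filter requires 2 libraries above 0.538 CPM before TMM scaling, and 42 of the 58 channels met it in all 4 libraries. KCNH3 met it only through the knockout libraries, so its entry into the test already depended on a difference.

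**Figure D1:**
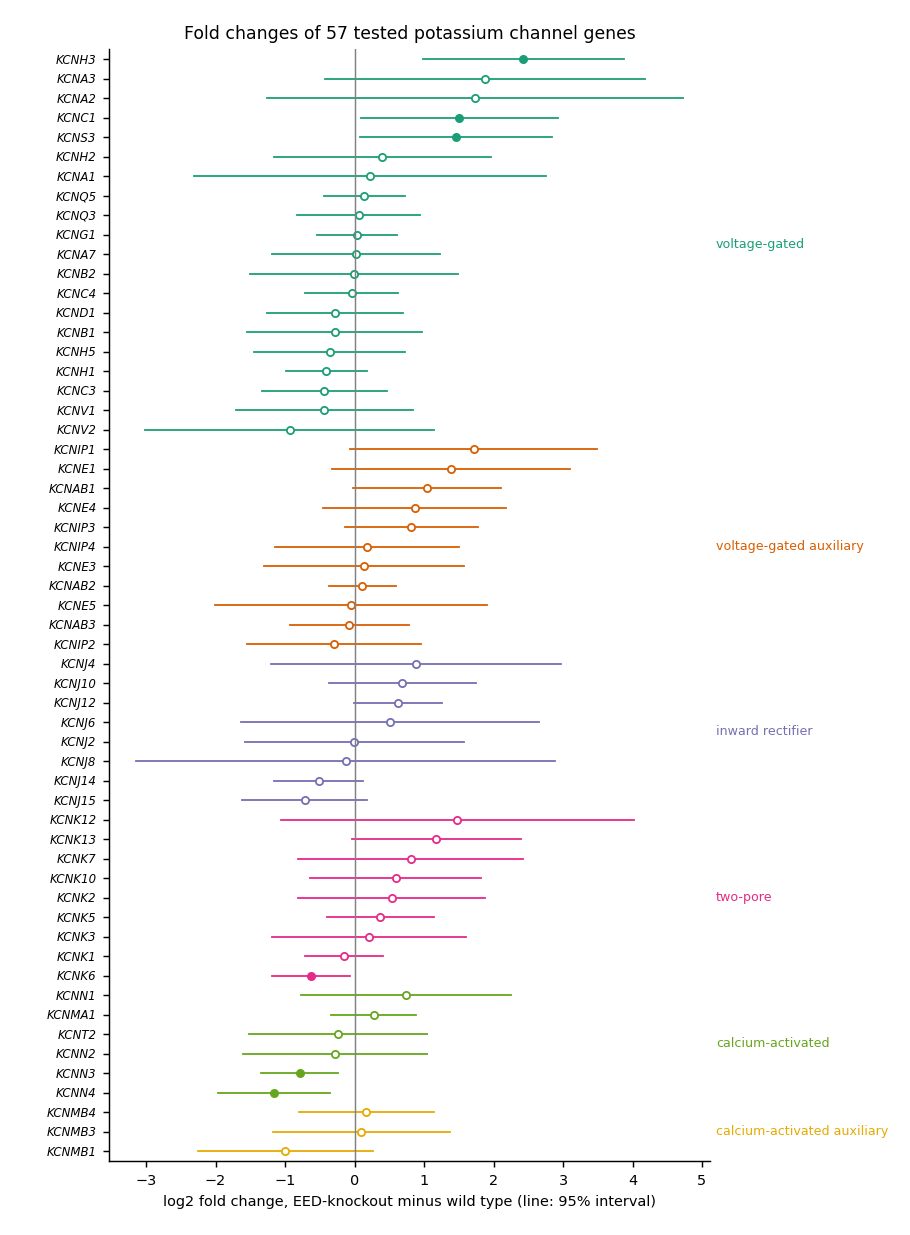
Log2 fold change (knockout minus wild type, x axis) of 57 of the tested channel genes, grouped by class. Points are edgeR estimates, lines are 95% intervals and filled points mark the 6 of them at an unadjusted p under 0.05; of the genes drawn, KCNH3 lies farthest to the right and KCNN4 farthest to the left.

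Promoter sequences were compared because PRC2 is known for CpG-rich promoters. RefSeq windows of 300 bases on GRCh38.p14, from 250 before to the end of the first 50 after the start, were matched for 71 of the 96 channels, using the first start listed for a gene. Of these, 36 (50.7%) had over 50% G and C with a ratio of observed to expected CpG above 0.6, beside 46.8% of all 27305 windows. Of the 7 channels at an unadjusted p under 0.05, the windows of KCNC1 and KCNS3, which were higher in the knockout libraries, met both limits, and those of KCNN4, KCNN3 and KCNK6, which were lower, did not. KCNH3 had no entry. The 4 windows below show that difference; capitals mark CpG, and each reads from 5′ to 3′ on the strand of the gene. KCNC1 (chr11:17734531-17734830, plus strand) had 44 CpG and an observed to expected ratio of 0.983. KCNS3 (chr2:17877597-17877896, plus strand) had 19 CpG and a ratio of 0.652. KCNN4 (chr19:43780924-43781223, minus strand) had 6 CpG and a ratio of 0.223. KCNN3 (chr1:154870232-154870531, minus strand) had 13 CpG and a ratio of 0.469.
KCNC1: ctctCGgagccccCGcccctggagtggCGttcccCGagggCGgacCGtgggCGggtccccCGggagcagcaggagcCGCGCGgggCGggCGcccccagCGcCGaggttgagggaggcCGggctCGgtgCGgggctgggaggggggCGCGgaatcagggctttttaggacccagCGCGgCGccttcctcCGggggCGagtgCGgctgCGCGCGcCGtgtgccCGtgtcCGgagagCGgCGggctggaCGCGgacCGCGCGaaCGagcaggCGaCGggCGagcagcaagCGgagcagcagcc
KCNS3: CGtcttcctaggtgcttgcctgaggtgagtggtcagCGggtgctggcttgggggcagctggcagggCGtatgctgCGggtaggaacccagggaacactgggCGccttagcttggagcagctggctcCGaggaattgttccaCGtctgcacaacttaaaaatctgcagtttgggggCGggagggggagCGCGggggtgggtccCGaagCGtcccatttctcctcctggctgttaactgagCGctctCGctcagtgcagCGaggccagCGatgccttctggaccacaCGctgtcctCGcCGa
KCNN4: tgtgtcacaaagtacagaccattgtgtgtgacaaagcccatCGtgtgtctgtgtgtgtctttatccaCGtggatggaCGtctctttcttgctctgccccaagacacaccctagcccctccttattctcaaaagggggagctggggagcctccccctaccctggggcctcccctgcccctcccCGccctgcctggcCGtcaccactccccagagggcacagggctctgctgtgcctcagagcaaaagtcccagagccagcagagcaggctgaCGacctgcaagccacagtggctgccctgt
KCNN3: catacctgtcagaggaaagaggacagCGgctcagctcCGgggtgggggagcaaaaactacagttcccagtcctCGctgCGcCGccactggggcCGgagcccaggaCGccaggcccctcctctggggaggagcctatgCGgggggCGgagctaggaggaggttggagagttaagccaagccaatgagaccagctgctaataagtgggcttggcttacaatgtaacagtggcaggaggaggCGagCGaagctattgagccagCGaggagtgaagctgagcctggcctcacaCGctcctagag

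KCNK6, not printed, had 16 CpG and a ratio of 0.575, just under the limit of 0.6. The contrast did not hold for every channel with groups apart at a larger p. Of those higher by a log2 fold change above 1, KCNK13 met both limits (ratio 0.929), while KCNIP1 (0.285) and KCNAB1 (0.286) did not. Of those lower, KCNH1 met both limits (0.741), while KCNJ14, KCNJ15 and KCNMB1 did not. The share of CpG-dense windows over all channels was near that of all genes, so the contrast among the few genes at an unadjusted p under 0.05 is a description. The letters TATAAA, the core of a TATA box, were searched on both strands and found in 8.45% of channel windows and 12% of all windows. The letters TCAGCACC, from the left part of the binding site of the repressor REST, a string unrelated to TATAAA, were found on either strand in KCNH5, KCNH6 and KCNK3, 4.23% of channel windows beside 1.7% of all windows. A match to these letters is not a site, and the windows of the other channels merely lack these letters. KCNH5 had wild type counts of 110 and 106 and knockout counts of 53 and 122, KCNK3 22 and 17 against 32 and 15, and KCNH6 had at most 7 counts per library.

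Daoy cells expressed a small subset of the family strongly. Levels are compared between genes in TPM (transcripts per 1000000), which corrects for transcript length. Over the 4 libraries, 35 of the 96 genes had a mean above 1 TPM and 8 a mean above 10 TPM. These 8 were KCNMA1 at 64.3 TPM, KCNG1 at 61.2 TPM, KCNJ15 at 43.2 TPM, KCNC4 at 31.7 TPM, KCNAB2 at 27.7 TPM, KCNN3 at 20.3 TPM, KCNK1 at 14.4 TPM and KCNK6 at 11.2 TPM. Every class except the auxiliary subunits of calcium-activated channels thus had a member above 10 TPM. At the other end, 6 genes had 0 counts in all 4 libraries (KCNA6, KCNA10, KCNC2, KCNK16, KCNK18 and KCNU1), and 21 genes, these 6 included, had at most 10 counts over the 4 libraries together. A count of 0 allows a level of up to 0.158 to 0.166 CPM in a library, counting error only.

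**Figure D2:**
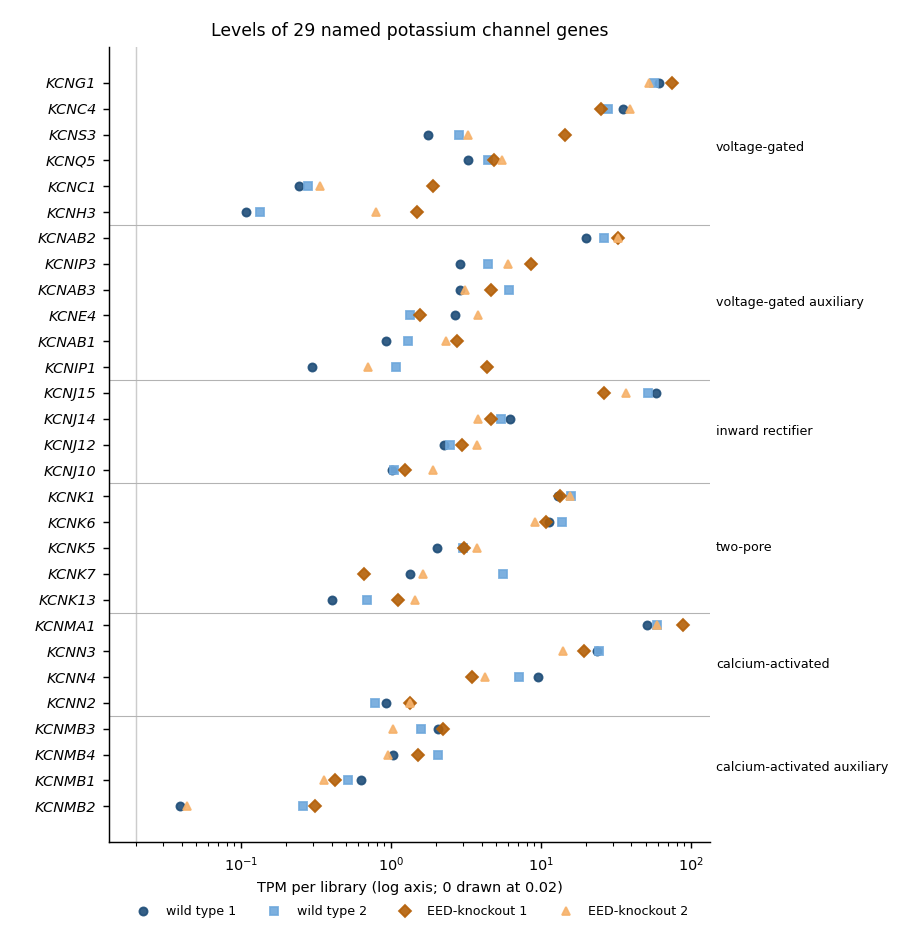
Level (TPM, log axis) of 29 named channel genes in each of the 4 libraries, grouped by class, with 0 drawn at the grey line. KCNMA1 and KCNG1 are the highest genes in most libraries, and KCNH3 has both knockout libraries to the right of both wild type libraries.

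Among the voltage-gated pore subunits, KCNG1, KCNC4 and KCNQ5 had overlapping groups, while KCNH3, KCNC1 and KCNS3 were higher in both knockout libraries without passing correction. KCNG1, a silent subunit that forms channels only together with KCNB subunits, had wild type counts of 1297 and 1171 and knockout counts of 1590 and 1034. KCNC4, of the Kv3 group, had 440 and 428 counts against 335 and 539. Their groups overlapped, with log2 fold changes of 0.03 (95% interval -0.55 to 0.61) and -0.04 (-0.71 to 0.62). Most of the KCNC4 level in TPM came from a processed transcript of 251 bases, KCNC4-007, at 16.3 to 27.8 TPM from 12 to 19 counts, and 45.7% of the gene's counts fell on protein-coding transcripts. KCNQ5, which contributes to the M current that limits repetitive firing, had 274 and 304 counts against 299 and 364, a log2 fold change of 0.14 with overlapping groups.

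KCNH3, an ether-à-go-go-like channel of the forebrain, had wild type counts of 6 and 7 and knockout counts of 48 and 26, so the groups did not overlap. The gene lies at chr12:49539157-49558308 on the plus strand (hg38, GENCODE 29). Its log2 fold change was 2.43 ± 0.61 (SE; edgeR unadjusted p = 0.00545, adjusted p = 0.799). Over 13 alternative analyses the adjusted p ran from 0.346 to 1.0. The transcript KCNH3-001 of 3867 bases held 93.6% of the counts. KCNH3 shares 1765 bases on the opposite strand with MCRS1, a gene at 76.6 CPM. Overlaps given here are of whole gene spans, introns included, and whether exons are shared was not checked. Without stated use of strand, the effect of such an overlap on the counts is unknown. The more abundant KCNH1, of the same ether-à-go-go family, had 299 and 300 counts against 216 and 254, a log2 fold change of -0.41 (95% interval -0.99 to 0.18).

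KCNC1, a Kv3 channel of fast-spiking neurons, had wild type counts of 19 and 22 and knockout counts of 90 and 32 (log2 fold change 1.51 ± 0.60, SE; edgeR unadjusted p = 0.0400, adjusted p = 0.823). KCNS3, a silent modulatory subunit, had 54 and 78 counts against 294 and 85 (1.46 ± 0.58; unadjusted p = 0.0415, adjusted p = 0.829 in edgeR). In both genes knockout 1 was far above the other 3 libraries, and knockout 2 was nearer to wild type 2 than to knockout 1. The unadjusted p was under 0.05 in 6 of the 13 alternatives for each; in 4 of the 13, 1 genotype keeps a single library, assumed to vary like the other genotype. Without knockout 1 the log2 fold changes were 0.60 for KCNC1 and 0.32 for KCNS3. KCNC1 also overlaps SERGEF, a gene at 8.70 CPM, on the opposite strand. KCNF1, a silent subunit that was not tested, had wild type counts of 4 and 4 and knockout counts of 40 and 9, and was picked for mention after its values were seen.

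The Shaker-type genes KCNA1, KCNA2 and KCNA3 varied widely between libraries of 1 genotype. KCNA2 had wild type counts of 6 and 44 and knockout counts of 165 and 9, with knockout 1 the highest and knockout 2 close to wild type 1. KCNA3, known from lymphocytes, had 3 and 13 counts against 52 and 10. KCNA1 had 9 and 28 counts against 42 and 3. None of the 3 had groups apart, and their 95% intervals all included 0. Of the 40 voltage-gated pore subunits, 19 were not tested, among them KCNQ1 with 1 count and KCNA5 with 1 count over the 4 libraries.

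Among the auxiliary subunits of voltage-gated channels, 4 of the 11 tested genes lay above wild type in both knockout libraries and 0 below, beside 17.9% and 18% of all genes, and none passed correction. KCNAB2, a beta subunit with an oxidoreductase fold, had wild type counts of 743 and 868 and knockout counts of 845 and 965; the groups overlapped and the log2 fold change was 0.11 (95% interval -0.37 to 0.59). KCNAB1, the beta 1 subunit that can speed inactivation of Kv1 channels, had 28 and 35 counts against 82 and 53, with the groups apart and a log2 fold change of 1.04 (95% interval -0.03 to 2.11; edgeR adjusted p = 0.851). KCNAB3 had 81 and 84 counts against 93 and 70, with overlapping groups.

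The KCNIP genes encode calcium-binding proteins that modulate Kv4 channels. KCNIP1 had wild type counts of 6 and 14 and knockout counts of 52 and 17, a log2 fold change of 1.71 (95% interval -0.06 to 3.49) that stood at 0.71 without knockout 1. KCNIP3, also known as a calcium-regulated transcriptional repressor, had 82 and 88 counts against 207 and 105. Its log2 fold change of 0.82 went to -0.01 with protein-coding transcripts only, because the processed transcript KCNIP3-003 had 126.3 counts in knockout 1 and 0 in the other 3 libraries. KCNIP1 and KCNMB1 share 15007 bases on opposite strands. KCNIP2 and KCNIP4 had 16 to 29 counts in every library. The Kv4 pore genes that these proteins serve were low: KCND1 had 58 to 105 counts per library, and KCND2 and KCND3 had at most 6.

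The KCNE genes encode small single-pass subunits. KCNE4 had wild type counts of 41 and 32 and knockout counts of 38 and 100, so only knockout 2 was high, and the log2 fold change of 0.86 was -0.01 without that library. KCNE1, the partner of KCNQ1 in the slow cardiac current, had 4 and 15 counts against 30 and 22; its near-identical copy KCNE1B had 4 and 10 against 0 and 5, so the split between the 2 is uncertain.

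Among the inward rectifiers, KCNJ15 was by far the most abundant and was lowest in knockout 1. KCNJ15, a Kir4.2 channel of kidney and other epithelia, had wild type counts of 1672 and 1216 and knockout counts of 564 and 1254. After scaling, both knockout libraries lay below both wild type libraries, at 48.2 ± 26.3 CPM against 79.5 ± 17.5 CPM (SD, n = 2 each), but knockout 2 lay just below wild type 2. The log2 fold change was -0.72 (95% interval -1.62 to 0.18; edgeR adjusted p = 0.873) and stood at -0.25 without knockout 1. KCNJ14, the Kir2.4 channel, had 346 and 264 counts against 243 and 200, with the groups apart and a log2 fold change of -0.52 (95% interval -1.15 to 0.12). It shares 1514 bases on the same strand with GRWD1, a gene at 117.2 CPM.

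KCNJ12, a Kir2.2 channel of strong rectification, had wild type counts of 157 and 153 and knockout counts of 227 and 270. The groups were apart and the log2 fold change was 0.62 (95% interval -0.01 to 1.26; edgeR unadjusted p = 0.0542, adjusted p = 0.849). KCNJ12 has the near-identical copy KCNJ18, listed at 0 to 1 counts per library, so how reads were split between them is uncertain. KCNJ10, the Kir4.1 channel known from glia, had 25 and 28 counts against 48 and 41, a log2 fold change of 0.69 (-0.37 to 1.75); it shares 7039 bases on the same strand with PIGM, a gene at 24.4 CPM. KCNJ8, a pore subunit of ATP-sensitive channels, had 19 and 17 counts in wild type, 0 in knockout 1 and 34 in knockout 2, and KCNJ6, a G-protein-gated channel, had 34 and 19 against 8 and 70. In both, the 2 knockout libraries lay on opposite sides of wild type.

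Among the two-pore channels, KCNK6 was lower in both knockout libraries and the other abundant genes overlapped. KCNK6, a weakly inward-rectifying channel also called TWIK2, had wild type counts of 665 and 895 and knockout counts of 580 and 475, or 42.9 ± 9.09 CPM against 27.9 ± 3.64 CPM (SD, n = 2 each). Its log2 fold change was -0.62 ± 0.24 (SE; edgeR unadjusted p = 0.0342, adjusted p = 0.808), and the unadjusted p was under 0.05 in 7 of 13 alternatives. KCNK1, the related TWIK1, had 344 and 361 counts against 299 and 362, a log2 fold change of -0.15 (95% interval -0.71 to 0.41) with overlapping groups. KCNK5, an alkaline-activated channel also called TASK2, had 107 and 148 counts against 155 and 188, and these groups overlapped after scaling. KCNK13, a halothane-inhibited channel of microglia and other cells, had 14 and 22 counts against 37 and 48, with the groups apart and a log2 fold change of 1.18 (-0.03 to 2.39; edgeR adjusted p = 0.851). Of the mechanically gated channels, KCNK2 had 22 to 69 counts per library and KCNK10 23 to 67, with overlapping groups. KCNK7 had 9 and 14 counts against 12 and 30, and its direction turned with the unit: the log2 fold change was 0.81 in counts and -1.58 with length-scaled TPM.

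The calcium-activated channels held the most abundant member and 2 of the 3 genes that were lower at an unadjusted p under 0.05. KCNMA1, the large-conductance BK channel opened jointly by voltage and calcium, had wild type counts of 2394 and 2459 and knockout counts of 3812 and 2314. Only knockout 1 was high, and the log2 fold change of 0.28 (95% interval -0.33 to 0.89) was -0.11 without that library. The antisense gene KCNMA1-AS1, at 0.92 CPM against 147.7 CPM for KCNMA1, overlaps it.

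KCNN3, the small-conductance channel SK3, had wild type counts of 2746 and 2287 and knockout counts of 1787 and 1246, or 138.5 ± 17.4 CPM against 80.2 ± 19.4 CPM (SD, n = 2 each). The groups did not overlap, and the log2 fold change was -0.79 ± 0.23 (SE; 95% interval -1.34 to -0.24; edgeR unadjusted p = 0.0118, adjusted p = 0.799). KCNN4, the intermediate-conductance channel of lymphocytes, red cells and several tumours, had 231 and 156 counts against 83 and 97, or 10.6 ± 2.89 CPM against 4.77 ± 0.573 CPM. Both knockout libraries again lay below both wild type libraries, with a log2 fold change of -1.16 ± 0.34 (SE; 95% interval -1.96 to -0.36; edgeR unadjusted p = 0.0112, adjusted p = 0.799). Over the alternative analyses the value ran from -1.06 to -0.51 for KCNN3 and from -1.42 to -0.85 for KCNN4, so both were lower in the knockout in all 13 alternatives; the unadjusted p was under 0.05 in 9 and 12 of them. KCNN3 lies at chr1:154697455-154870280 and KCNN4 at chr19:43766533-43781261, both on the minus strand (hg38, GENCODE 29). The main transcripts KCNN3-001 and KCNN4-001 held 77.2% and 85.7% of the counts of their genes. The other small-conductance genes were thinly expressed: KCNN1 had 8 to 26 counts per library and KCNN2 16 to 37, each with overlapping groups. The sodium-activated KCNT2 had 15 to 22 counts in each library.

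The BK auxiliary subunits were low in all libraries. KCNMB1, the smooth muscle beta 1 subunit that raises calcium sensitivity, had wild type counts of 28 and 26 and knockout counts of 12 and 16, with the groups apart and a log2 fold change of -1.0 (95% interval -2.26 to 0.27; edgeR adjusted p = 0.876). KCNMB4, the neuronal beta 4 subunit, had 64 and 59 counts against 89 and 55. KCNMB3 had 53 and 33 against 66 and 30 and shares 3403 bases on the opposite strand with PIK3CA, a gene at 56.8 CPM. KCNMB2, at 1 to 6 counts per library, was not tested.

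Summed over its members in TPM, the inward rectifier class was the one whose level was lower in both knockout libraries, whereas both voltage-gated classes were higher in both. The inward rectifier sum was 69.4 and 62.9 TPM in wild type 1 and 2 and 37.2 and 49.5 TPM in knockout 1 and 2. KCNJ15 alone supplied 58.6, 51.2, 26.3 and 36.6 TPM of these. As plain CPM of the library total, the inward rectifier groups overlapped, at 118.9 and 98.3 in wild type against 60.7 and 105.3 in the knockout. The voltage-gated pore sum was 116.9 and 116.5 TPM in wild type and 145.9 and 128.0 TPM in the knockout, but in CPM the groups overlapped, at 158.5 and 183.4 against 203.6 and 169.5. The sum of their auxiliary subunits was 34.6 and 44.9 TPM against 60.9 and 53.0 TPM, of which KCNAB2 gave 19.9 and 26.2 against 32.3 and 32.4 TPM. The calcium-activated sum was 85.7 and 92.4 TPM against 113.8 and 80.3 TPM; the knockout mean was higher in TPM, where KCNMA1 leads, and lower in CPM (281.7 ± 4.0 against 253.9 ± 70.0, SD, n = 2 each), where the long KCNN3 weighs more. The two-pore sums overlapped, at 30.3 and 44.0 TPM against 36.6 and 34.9 TPM. The sums of calcium-activated auxiliary subunits were 2.38 to 4.44 TPM in every library. These sums carry no test.

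**Figure D3:**
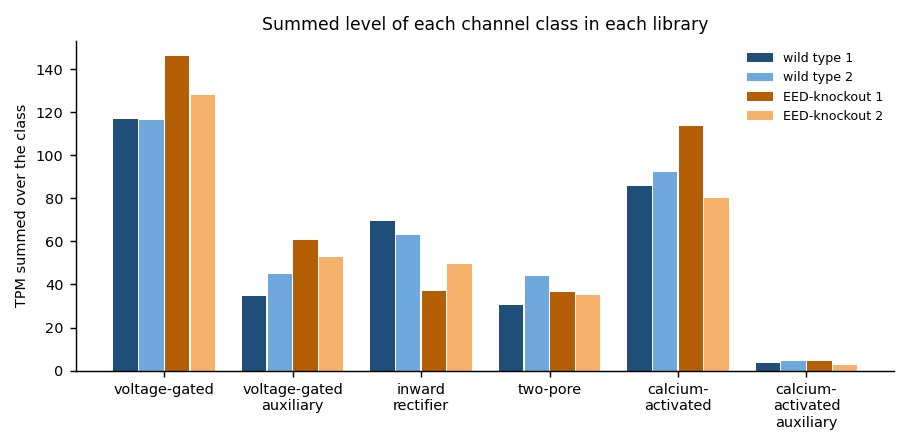
TPM summed over the members of each channel class (y axis), 1 bar for each library. Both knockout bars are lower than both wild type bars for inward rectifiers and higher for both voltage-gated classes, and the bars of the other classes overlap.

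The deviation of each knockout library from wild type was counted gene by gene. The deviation is log2 of CPM + 0.5 over the wild type mean + 0.5, and was set against 1, a doubling, in the 58 tested genes. It was above 1 in both knockout libraries for 2 genes, KCNH3 among them, beside 0.676% of all genes tested. It was above 1 in knockout 1 only for 8 genes (KCNA2, KCNA3, KCNC1, KCNS3, KCNIP1, KCNIP3, KCNE1 and KCNAB1; 3.52% of all genes) and in knockout 2 only for 4 (KCNE4, KCNJ6, KCNK12 and KCNK13; 1.38%). It was below -1 in both libraries for 0 genes (0.627% of all genes), in knockout 1 only for 5 (KCNV2, KCNJ6, KCNJ8, KCNJ15 and KCNN4; 2.95%) and in knockout 2 only for 2 (KCNA1 and KCNN3; 2.01%). Over all genes, too, a deviation beyond 1 in a single library was more frequent than in both. The counts turn on the limit of 1: KCNN4 stood at -1.20 and -0.98 in knockout 1 and 2, KCNE1 at 1.03 and 0.72, and KCNK13 at 0.71 and 1.04. Knockout 1 was the highest of the 4 libraries for 26 of the 58 channels (44.8%), against 31.2% of all genes tested. It is also the library with the high endothelial marker sum, and the part of that in these values was not tested.

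**Figure D4:**
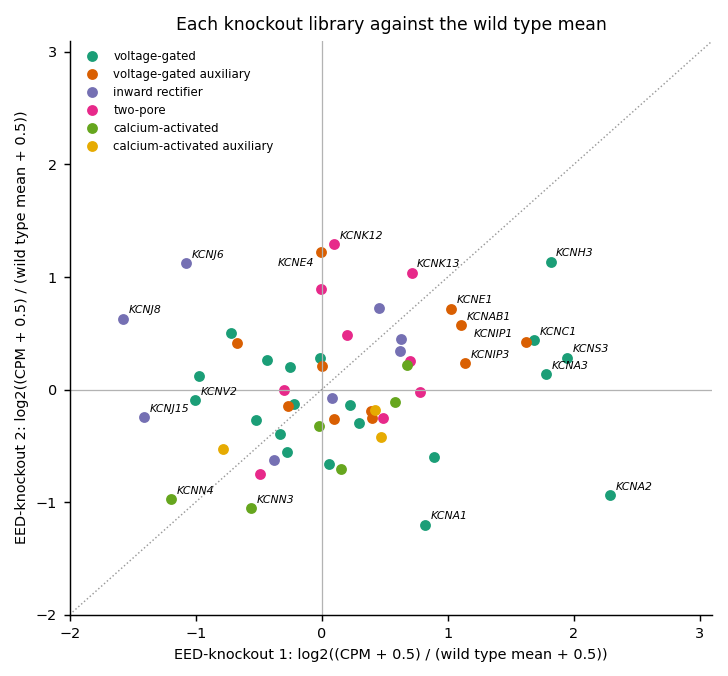
Deviation of knockout 1 (x axis) and knockout 2 (y axis) from the wild type mean, as log2 with 0.5 CPM added, for 57 of the tested channel genes, coloured by class. KCNH3 is the one point drawn above 1 on both axes, and more labelled points lie beyond 1 along the knockout 1 axis than along the knockout 2 axis.

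A list of 38 channel partners and potassium transport genes outside the KCN symbols had 29 tested genes, of which edgeR called 0. At an unadjusted p under 0.05, 3 were higher (HCN4 and ATP1B2 among them) and 0 lower, beside 2.85% and 3.05% of all genes. HCN4, ATP1B2, LRRC26 and SLC12A5 passed the filter only through the knockout libraries, so their entry into the test depended on a difference. Both knockout libraries were above both wild type libraries for 8, with these genes included, and below for 4, beside 17.9% and 18% of all genes. The median log2 fold change was 0.16 (0.01 over all genes). HCN4, a pacemaker channel, had wild type counts of 1 and 5 and knockout counts of 24 and 31. ATP1B2, a sodium pump beta subunit of neural tissue, had 1 and 8 counts against 20 and 27. The more widely expressed beta subunit ATP1B3 had a log2 fold change of -0.12, and calmodulin CALM2, a constitutive calcium sensor of the KCNN channels, had one of -0.25. The potassium-chloride cotransporters SLC12A4 and SLC12A7 had groups apart, with log2 fold changes of 0.50 and 0.51 (edgeR adjusted p = 0.881 and 0.851). ABCC8, a sulfonylurea receptor of ATP-sensitive channels, had 0 counts in either wild type library, with 12 and 3 in the knockout, too few to be tested.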

How the data were processed

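RNA-seq of 2 wild type and 2 EED-knockout Daoy libraries was analysed from the deposited kallisto tables. The authors quantified transcripts with kallisto 0.43.1 on build hg38, per the submitters' processing notes; per the file headers the tables give estimated counts and TPM for each transcript, and strand use was not given in the sources used here. Here estimated counts of 199324 transcripts were summed to 58174 genes and rounded, and tested with edgeR 4.0.16 (TMM, filterByExpr with a minimum count of 10, quasi-likelihood F test, Benjamini-Hochberg over 18349 genes, two-sided, threshold 0.05, genotype only) in R 4.3.3. TPM was summed per gene. CPM of a gene uses TMM-scaled library sizes; CPM of a class uses library totals. DESeq2 1.42.0, limma-trend 3.58.1 on log2 TPM, other scalings and filters, protein-coding transcripts only, length-scaled TPM, a replicate block and leaving out each library were alternatives. Positions are from GENCODE 29.

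The channels and all lists were chosen with earlier results of these data known. Genes named by rule were EED, channels called by either tool or at an unadjusted edgeR p under 0.05, channels above 1 CPM with a log2 fold change beyond 1 and groups apart, the 4 highest of each class by mean TPM, and channels at 0 in 1 genotype with 10 or more counts in both libraries of the other; this gave 30 channels. Values of some genes counted here are not reported here. Others named illustrate a class or a count and were chosen after their values were seen.

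Replicate numbers are not said to pair the libraries. The deviations of wild type 1 and knockout 1 from their genotype means correlated at -0.14 across genes. With 2 libraries for each genotype, that value only compares the numbered pairing with the crossed one. It cannot tell whether the libraries were paired at all. On simulated counts for this comparison with 200 changed genes, edgeR recovered 6.1% at 2-fold, 67.2% at 4-fold and 90.3% at 8-fold, on 17730 to 17760 genes. Its false calls averaged 5, 20.7 and 25 at these folds. DESeq2 averaged 10.7 false calls with no gene changed. The changed genes were drawn at random from all genes tested, so these rates are not specific to channels with low counts.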

Additional observations from a re-analysis of the deposited data

How the results depend on the processing

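With 2 libraries for each genotype, a 2-fold difference was seldom recovered on simulated counts, so the count of 0 channels says little about differences of that size; genes under about 30 counts per library rest on few reads. The number of channels called was 0 under every alternative run. Channels at an unadjusted p under 0.05 numbered 7, and 4 with protein-coding transcripts only, 4 and 6 in limma-trend with 0.1 and with 1 added to TPM, and 3 to 15 when 1 library was left out. The number of all genes called was 0 by edgeR and 68 by DESeq2, and 0 to 23 when 1 library was left out, with 19 called once wild type 2 was dropped and 23 once knockout 1 was. The median log2 fold change of the tested channels was 0.14, 0.041 with length-scaled TPM, and 0.063 to 0.32 when 1 library was left out, the highest without wild type 2. The log2 ratio of the summed level of voltage-gated auxiliary subunits was 0.30 in CPM and 0.52 in TPM. Of 389 alternative values for the 30 named channels, 359 kept their direction and 30, in 12 genes, reversed it; the cause was not tested except where fewer samples or transcripts enter by construction.

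With length-scaled TPM, the log2 fold change reversed to 0.54 for KCNN2, -0.29 for KCNMB3, -0.39 for KCNMB4 and -1.58 for KCNK7. Under limma-trend with 1 and with 0.1 added to TPM, it was 0.33 and 0.59 for KCNN2, -0.14 and -0.24 for KCNMB3, -0.16 and -0.25 for KCNMB4, -0.91 and -1.32 for KCNK7, and 0.010 and 0.00995 for KCNC4. With protein-coding transcripts only, it was -0.14 for KCNMB3, 0.038 for KCNAB3 and -0.0095 for KCNIP3. When 1 library was left out, the log2 fold change ran from -0.11 to 0.58 for KCNMA1, from -0.99 to 0.18 for KCNN2, from -0.56 to 0.54 for KCNMB3, from -0.20 to 0.46 for KCNMB4, from -0.012 to 1.33 for KCNK7, from -0.45 to 0.27 for KCNC4, from -0.30 to 0.29 for KCNG1, from -0.024 to 0.29 for KCNQ5, from -0.0042 to 0.22 for KCNAB2, from -0.28 to 0.10 for KCNAB3 and from -0.015 to 1.41 for KCNE4.

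The fit with the replicate number as a block called 0 channels, with 4 at an unadjusted p under 0.05 and a median of 0.08, and changed no call. The crossed pairing, chosen after seeing the data, called 0 channels and 0 of all genes, with 11 channels (7 higher, 4 lower) at an unadjusted p under 0.05.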
